A study of Mus musculus with 8 samples.

Results

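Epithelia such as the optic cup keep an apical and a basal side through protein complexes at their lateral membranes, and 32 genes of this machinery were followed through closure of the mouse optic fissure. They encode tight junction proteins, claudins, the Par, Crumbs and Scribble polarity complexes, and the catenins that tie cadherins to actin. Members were all probe sets whose annotated gene symbol was on this list. Of the 32 symbols, 31 had at least 1 probe set, out of 18193 genes annotated on the array, and they shared 72 probe sets. Crb2 was not analysed here. After the lowest 40% of probe sets by mean signal were left out (mean log2 signal below 3.94), 51 probe sets of 25 genes were tested and 21 were not.

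Optic fissure tissue of wild-type C57BL/6 mouse embryos was collected by laser microdissection at embryonic days 10.5, 11.5 and 12.5 (E10.5, E11.5 and E12.5), with 3, 3 and 2 arrays. No group carried a transgene, a mutation or a treatment. Each array held amplified RNA pooled from 3 embryos, given by one label as from a single litter and by a protocol as from separate litters, and the arrays of a stage are called biological replicates and are named here by the letters A to C. Values are log2 signals, so a difference of 1 is 2-fold, and signals of different probe sets cannot be set against each other. Because the tissue is bulk, fewer cells of a type and less RNA per cell cannot be told apart.

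The optic cup is a folded neuroepithelium whose apical surfaces face each other between the future retina and pigment epithelium, while its basal surface lies on a basement membrane. During closure the apposed fissure margins fuse and their epithelia are rebuilt as continuous sheets. The Crumbs and Par complexes mark the apical side, the Scribble complex the basolateral side, and the developing neural retina is held together at its apical edge by adherens junctions. Tight junctions, sealed by claudins, are typical of the pigment epithelium, surface ectoderm and vessels.

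The array medians lay between 4.37 and 4.48, but the 99th percentile of log2 signal was 12.55 to 12.93 at E10.5, 11.19 to 12.38 at E11.5 and 12.47 to 12.58 at E12.5. Every E11.5 array was thus below every array of the other stages at the bright end. For the Gapdh controls, the 3 prime probe set exceeded the 5 prime one by 4.19 to 4.71, 3.35 to 4.63 and 4.78 to 5.17 log2 units at these stages, a gap that grows as transcripts are less complete. For the Actb controls it was 6.83 to 6.96, 5.45 to 6.61 and 6.88 to 7.21. On E11.5 A, B and C the Gapdh gap was 3.35, 3.94 and 4.63, and the 99th percentile 11.19, 11.83 and 12.38. The smaller gaps at E11.5 therefore cannot be read as more complete transcripts. Markers of the labelled tissue were present: Aldh1a3, a retinoic acid enzyme of the optic cup, read 10.85 to 12.24 over the 8 arrays, Vax2 of the ventral cup 8.25 to 10.07, and the eye field factor Six3 10.14 to 12.04. P-values measure the spread between these arrays.

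On the brightest probe set of each gene, 2 genes of the apical Crumbs complex changed most from E11.5 to E12.5 among the 25 tested. Lin7a, a small PDZ scaffold that binds the Crumbs partner Pals1 and is also found at synapses, rose 10.6-fold. Crb1, the transmembrane Crumbs protein of the retina whose human counterpart is mutated in inherited retinal dystrophy, rose 4.82-fold on 1 of 2 probe sets. The other Crb1 probe set differed by 0.01 log2 units. With the probe sets of a gene averaged, the Crb1 rise was 1.14, below the 1.70 of Cldn1. Cldn1, a sealing claudin, and Jam2, an immunoglobulin-family junctional adhesion molecule, also had a called probe set. "Called" means an adjusted p below 0.05 in limma, with adjustment over all 27022 probe sets tested.

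Promoters are shown for the called genes that had one in the table, since these genes rose in the same interval. They are the 250 bases before the most upstream RefSeq start (build GRCm38.p6), read 5′ to 3′ on the gene's strand, with capitals marking matches to 3 forms of the E-box, the motif of basic helix-loop-helix factors.
Crb1, chr1:139377077-139377326 (minus strand): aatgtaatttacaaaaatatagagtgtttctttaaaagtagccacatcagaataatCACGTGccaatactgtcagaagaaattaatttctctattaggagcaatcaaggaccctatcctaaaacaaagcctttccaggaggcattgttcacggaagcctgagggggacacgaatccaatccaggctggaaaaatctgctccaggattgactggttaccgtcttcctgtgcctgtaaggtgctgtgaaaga
Lin7a, chr10:107271581-107271830 (plus strand): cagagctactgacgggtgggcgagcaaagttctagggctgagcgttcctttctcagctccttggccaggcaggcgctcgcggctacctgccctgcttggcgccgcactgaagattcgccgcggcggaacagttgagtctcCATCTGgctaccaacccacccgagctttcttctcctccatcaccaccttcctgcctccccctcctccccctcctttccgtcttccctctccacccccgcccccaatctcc
Cldn1, chr16:26371840-26372089 (minus strand): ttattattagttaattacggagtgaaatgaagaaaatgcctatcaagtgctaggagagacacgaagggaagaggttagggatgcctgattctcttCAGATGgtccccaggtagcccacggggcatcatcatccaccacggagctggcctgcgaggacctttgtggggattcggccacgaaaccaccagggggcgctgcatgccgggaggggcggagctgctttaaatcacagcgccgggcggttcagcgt
Each window held 1 match on either strand: CACGTG in Crb1, 194 bases before the start at its first base, and CAGATG, or its reverse complement CATCTG, in Lin7a (110 bases) and Cldn1 (155 bases). The same length of all 32851 promoters held CACGTG in 6.02% and CAGATG in 14.4%, and the third form searched, CAGCTG, in 13%. The G and C content was 41.6% for Crb1, 63.6% for Lin7a and 55.6% for Cldn1.

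Lin7a was measured by 3 probe sets, of which 2 were tested. On 1435805_at it read 6.51, 6.48 and 6.47 on the E10.5 arrays, 6.18, 5.88 and 6.35 at E11.5 and 9.03 and 10.04 at E12.5. Both E12.5 arrays thus stood far above the other 6, which lay within a narrow band. The log2 change was 3.40 (SE 0.31, limma adjusted p = 0.000188) against E11.5 and 3.05 (SE 0.31, adjusted p = 0.000248) against E10.5, and both changes were called in all 20 alternative fits, with adjusted p of at most 0.0033 and 0.00542.

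The second Lin7a probe set, 1456656_at, read 3.35, 3.80 and 4.09 at E10.5, 4.45, 3.66 and 4.07 at E11.5 and 4.80 and 5.67 at E12.5. Its E12.5 arrays were also the highest. It rose by 1.48 (SE 0.30, adjusted p = 0.0205) against E10.5, while its difference from E11.5 was 1.17 (SE 0.30, adjusted p = 0.0861) and did not pass. The call against E10.5 was lost in 4 of 19 alternative fits, among them those without E12.5 B (1.05, adjusted p = 0.292), without E10.5 A (1.29, adjusted p = 0.0511) and with only these stages fitted (adjusted p = 0.0564), and its size was 0.40 with a pseudocount of 64. Among the fits that kept the call, that of averaged probe sets joined this probe set with the brighter one of Lin7a (2.27). The third, 1438450_at, lay below the filter, at 3.27 to 3.62 on the E10.5 and E11.5 arrays and 4.54 and 5.27 at E12.5. When no filter was applied it was called in both comparisons with E12.5 (1.36, adjusted p = 0.00782, against E11.5). All 3 probe sets of this gene were therefore higher on both E12.5 arrays than on any earlier one.

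Crb1 had 2 tested probe sets that went apart. On 1441330_at it read 3.77, 3.90 and 3.94 at E10.5, 4.09, 4.18 and 4.05 at E11.5 and 6.26 and 6.50 at E12.5. The stages did not overlap, and the first 2 stages lay close to the filter limit. The log2 change to E12.5 was 2.27 (SE 0.18, adjusted p = 5.74e-05) against E11.5 and 2.51 (SE 0.18, adjusted p = 2.21e-05) against E10.5, with both called in all 19 alternative fits that held it. The size was lower with a pseudocount of 64 (0.86 and 0.91). The other probe set, 1421451_at, read 3.98, 3.93 and 4.79 at E10.5, 4.12, 4.07 and 4.12 at E11.5 and 4.12 and 4.11 at E12.5. It differed by 0.01 between E12.5 and E11.5 (95% interval -0.51 to 0.52). With the probe sets averaged the rises were 1.14 and 1.19, still called. Which transcripts of Crb1 each probe set detects was not tested.

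Lin7c, a paralogue of Lin7a, was higher at E12.5 on its brightest probe set but not called. That probe set read 8.40, 8.80 and 7.47 at E10.5, 7.62, 8.11 and 9.23 at E11.5 and 9.71 and 9.89 at E12.5. Both E12.5 arrays were above all others, with wide spread among the earlier ones. The change was 1.48 (SE 0.48, adjusted p = 0.156) against E11.5 and 1.58 (SE 0.48, adjusted p = 0.0821) against E10.5. Without E11.5 C it was called in both (adjusted p = 0.0382 and 0.0459). In these comparisons the Lin7c probe set 1423322_at differed by 0.99 and 0.64 and 1418898_at by 0.21 and -0.04, none called with all arrays. The remaining tested genes of the group gave small differences between E12.5 and E11.5, which were -0.04 for Lin7b (95% interval -0.52 to 0.44) and -0.52 for Crb3, the Crumbs protein of many epithelia (95% interval -1.06 to 0.02). The other tested Crb3 probe sets differed by -0.33 and 0.01, neither called.

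**Figure D1:**
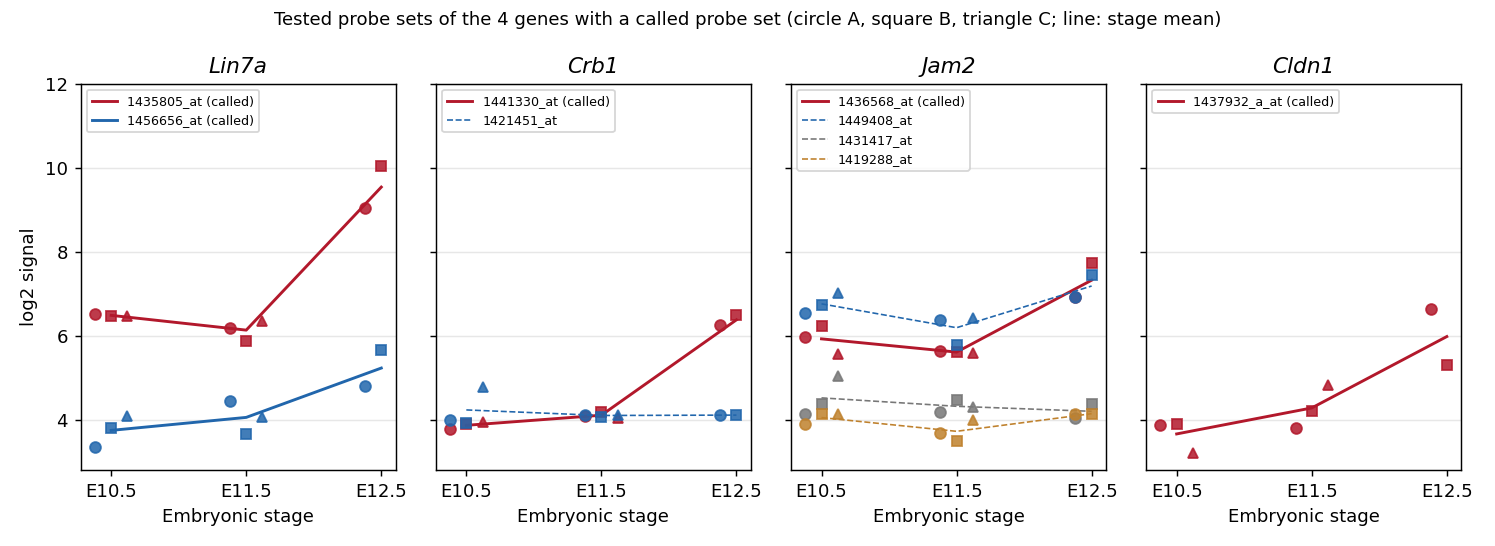
Log2 signal of every tested probe set of Lin7a, Crb1, Jam2 and Cldn1 by stage, 1 symbol per array (circle A, square B, triangle C) with lines through the stage means, solid for probe sets called in at least 1 comparison. Lin7a and 1 of 2 Crb1 probe sets are highest on both E12.5 arrays, while the other Crb1 probe set is at 4.07 to 4.12 at both later stages and only 1 of 4 Jam2 probe sets is called.

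Among tight junction membrane proteins and scaffolds, Jam2 was the single gene with a called probe set. On 1436568_at it read 5.96, 6.24 and 5.57 at E10.5, 5.64, 5.61 and 5.58 at E11.5 and 6.92 and 7.73 at E12.5. Its E12.5 arrays did not overlap with the others. It rose by 1.71 (SE 0.29, 3.27-fold, adjusted p = 0.0119) against E11.5 and by 1.40 (SE 0.29, 2.63-fold, adjusted p = 0.0213) against E10.5. Each call ended in 4 of 20 alternative fits. Both ended without E12.5 B (1.31, adjusted p = 0.267, and 0.99, adjusted p = 0.364), and with the Jam2 probe sets averaged (0.75, adjusted p = 0.0689, and 0.40, adjusted p = 0.22). The call against E11.5 also ended without E11.5 A (adjusted p = 0.0532) or E11.5 B (adjusted p = 0.0553), and that against E10.5 in 2 more fits, among them that of only these stages (adjusted p = 0.0799). With a pseudocount of 64 the rises were 1.00 and 0.85. The brightest Jam2 probe set, 1449408_at, read 6.55, 6.73 and 7.01 at E10.5, 6.37, 5.77 and 6.43 at E11.5 and 6.92 and 7.45 at E12.5. Every E11.5 array was below every other array, and it was not called in any comparison, with 0.99 (SE 0.29, adjusted p = 0.123) for E12.5 over E11.5. The other tested Jam2 probe sets differed between E12.5 and E11.5 by -0.12 and 0.42, neither called.

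The other tested genes of this group were not called. Mean signals (± SD) of Tjp1, the scaffold ZO-1, were 10.3 ± 0.47 for the 3 E10.5 arrays, 9.66 ± 0.48 for the 3 E11.5 arrays and 10.2 ± 0.14 for the 2 E12.5 arrays. Jam3 differed by 0.61 and F11r, or JAM-A, by -0.20 between E12.5 and E11.5. Tjp3, the scaffold ZO-3, was lower on both E12.5 arrays than on any E10.5 array, with a difference of -0.62 (SE 0.30, adjusted p = 0.252). Ocln, occludin, had 2 probe sets that stayed between 3.09 and 4.03 on all arrays and was not tested.

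Of the 7 claudins, 3 were tested and Cldn1 was called. On 1437932_a_at it read 3.88, 3.90 and 3.21 at E10.5, 3.82, 4.21 and 4.83 at E11.5 and 6.65 and 5.31 at E12.5. Both E12.5 arrays were above the rest, but they differed from each other by more than a log2 unit. It rose by 2.32 (SE 0.38, adjusted p = 0.00692) against E10.5, where all 3 arrays read below the filter limit of 3.94, so no fold is given. The rise was called in all 19 alternative fits, but it was 0.76 with a pseudocount of 64 and 1.65 (adjusted p = 0.0426) without E12.5 A. Against E11.5 it rose by 1.70 (SE 0.38, 3.25-fold, adjusted p = 0.0497), at the edge of the threshold. That call ended in 13 of 19 alternative fits, among them those without E12.5 A (1.03, adjusted p = 0.331), E11.5 A (1.47, adjusted p = 0.212), E11.5 B (1.66, adjusted p = 0.158), E10.5 A (adjusted p = 0.0617) or E10.5 B (adjusted p = 0.0958), after quantile normalization (1.63, adjusted p = 0.081) and with a pseudocount of 64 (0.64, adjusted p = 0.0508). Its 3 other probe sets lay below the filter at all stages and did not show this rise. At E12.5 they differed by 0.01, 0.09 and 0.07 from E11.5 and by -0.09, 0.03 and -0.14 from E10.5.

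Cldn12, a broadly expressed claudin, was bright and read 11.21, 10.61 and 11.44 at E10.5, 9.73, 10.13 and 10.70 at E11.5 and 11.12 and 11.17 at E12.5. It was lower at E11.5 than at either neighbouring stage on average, with -0.90 (SE 0.34, adjusted p = 0.201) for E11.5 against E10.5. Its second tested probe set had the opposite sign there, 0.22 (SE 0.42, adjusted p = 0.808). Cldn3 differed by -0.54 (SE 0.28, adjusted p = 0.35) between E12.5 and E11.5, and 3 of its 4 probe sets were lower on both E12.5 arrays than on every E11.5 array. Cldn4, Cldn6, Cldn7 and Cldn11 had 1 probe set each, all below the filter, with 4.65 as their highest value on any array (Cldn11). Several of these are claudins of surface and gut epithelia.

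No gene of the Par complex, the apical module of PDZ scaffolds and atypical protein kinase C, was called. Prkcz, one of the atypical kinases, read 5.22, 4.70 and 5.50 at E10.5, 4.68, 4.55 and 4.71 at E11.5 and 4.43 and 4.59 at E12.5. Its E12.5 arrays lay below every E10.5 array, with a difference of -0.63 (SE 0.24, adjusted p = 0.146) that was called without E10.5 B (-0.85, adjusted p = 0.0432). The E11.5 difference from E10.5 was -0.50 (SE 0.21, adjusted p = 0.232). Pard6a, an adaptor that links the kinase to Cdc42, read 5.35 and 5.38 at E12.5, against 5.58, 5.81 and 5.63 at E11.5, a difference of -0.31 (SE 0.26, adjusted p = 0.592). Between E12.5 and E11.5 the scaffold Pard3, the second adaptor Pard6b and the kinase Prkci differed by 0.31, 0.09 and 0.45, with 95% intervals that each held 0. Each also had a dimmer tested probe set of opposite sign, with -0.25 for Pard3 (1420391_at), -0.01 for Pard6b and -0.29 for Prkci. The remaining tested Pard3 probe sets differed by 0.58 and 0.14, and none of these was called.

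The Scribble complex, which sets the basolateral domain, had 4 tested genes and none was called. Llgl1, a homologue of the fly lethal giant larvae protein, read 9.68, 9.71 and 9.73 at E10.5, 8.68, 8.86 and 9.50 at E11.5 and 9.96 and 9.95 at E12.5. Its E11.5 arrays lay below all others, with -0.70 (SE 0.28, adjusted p = 0.214) against E10.5, and E12.5 was 0.95 (SE 0.31, adjusted p = 0.165) above E11.5, called without E11.5 C (1.19, adjusted p = 0.0469). Scrib, the scaffold that names the complex, read 6.70, 7.34 and 7.58 at E11.5, against 7.84, 7.75 and 8.02 at E10.5, a difference of -0.66 (SE 0.26, adjusted p = 0.211). Its groups did not overlap. Llgl2 differed by -0.29 (SE 0.20, adjusted p = 0.431) between E12.5 and E10.5, where it read 4.54 and 4.44 against 4.80, 4.51 and 5.02. Dlg1, a PDZ scaffold, had means (± SD over arrays) of 11.7 ± 0.19, 10.9 ± 0.55 and 11.6 ± 0.19 at the 3 stages in order. Its dimmer tested probe set, 1450768_at, differed at E12.5 by -0.31 from E11.5 and by -0.62 from E10.5, neither called.

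Catenins link cadherins to the actin cortex, and beta-catenin also carries Wnt signals to the nucleus. Ctnna1, alpha-catenin of epithelia, read 13.25, 12.91 and 13.54 at E10.5, 11.49, 12.19 and 12.76 at E11.5 and 13.18 and 13.22 at E12.5, on a probe set (1437807_x_at) whose probes can match other transcripts. The E11.5 arrays were below all others. The E11.5 minus E10.5 and E12.5 minus E11.5 differences were -1.09 (SE 0.39, adjusted p = 0.184) and 1.05 (SE 0.43, adjusted p = 0.255), neither called. In the same comparisons the Ctnna1 probe set 1448149_at differed by -0.93 and 1.08 and 1436631_at by -0.28 and 0.62, none called. Ctnnb1, beta-catenin, had means (± SD over arrays) of 13.4 ± 0.30, 12.5 ± 0.91 and 13.4 ± 0.03 at the 3 stages in order, also not called. Its dimmer probe sets 1450008_a_at and 1430533_a_at differed at E12.5 by 1.10 and 0.13 from E11.5 and by 0.91 and 0.43 from E10.5, none called. Ctnnd1, p120-catenin, which steadies cadherins at the membrane, read 6.02 and 6.08 at E12.5, against 6.19, 6.09 and 6.48 at E10.5, a difference of -0.21 (SE 0.26, adjusted p = 0.677). Ctnna2, the alpha-catenin of neurons, had 1 probe set below the filter, which read 3.49, 3.68 and 3.57 at E10.5, 2.96, 2.96 and 3.38 at E11.5 and 3.94 and 4.81 at E12.5. Without a filter its rise of 1.28 over E11.5 was called (SE 0.23, adjusted p = 0.0187).

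**Figure D2:**
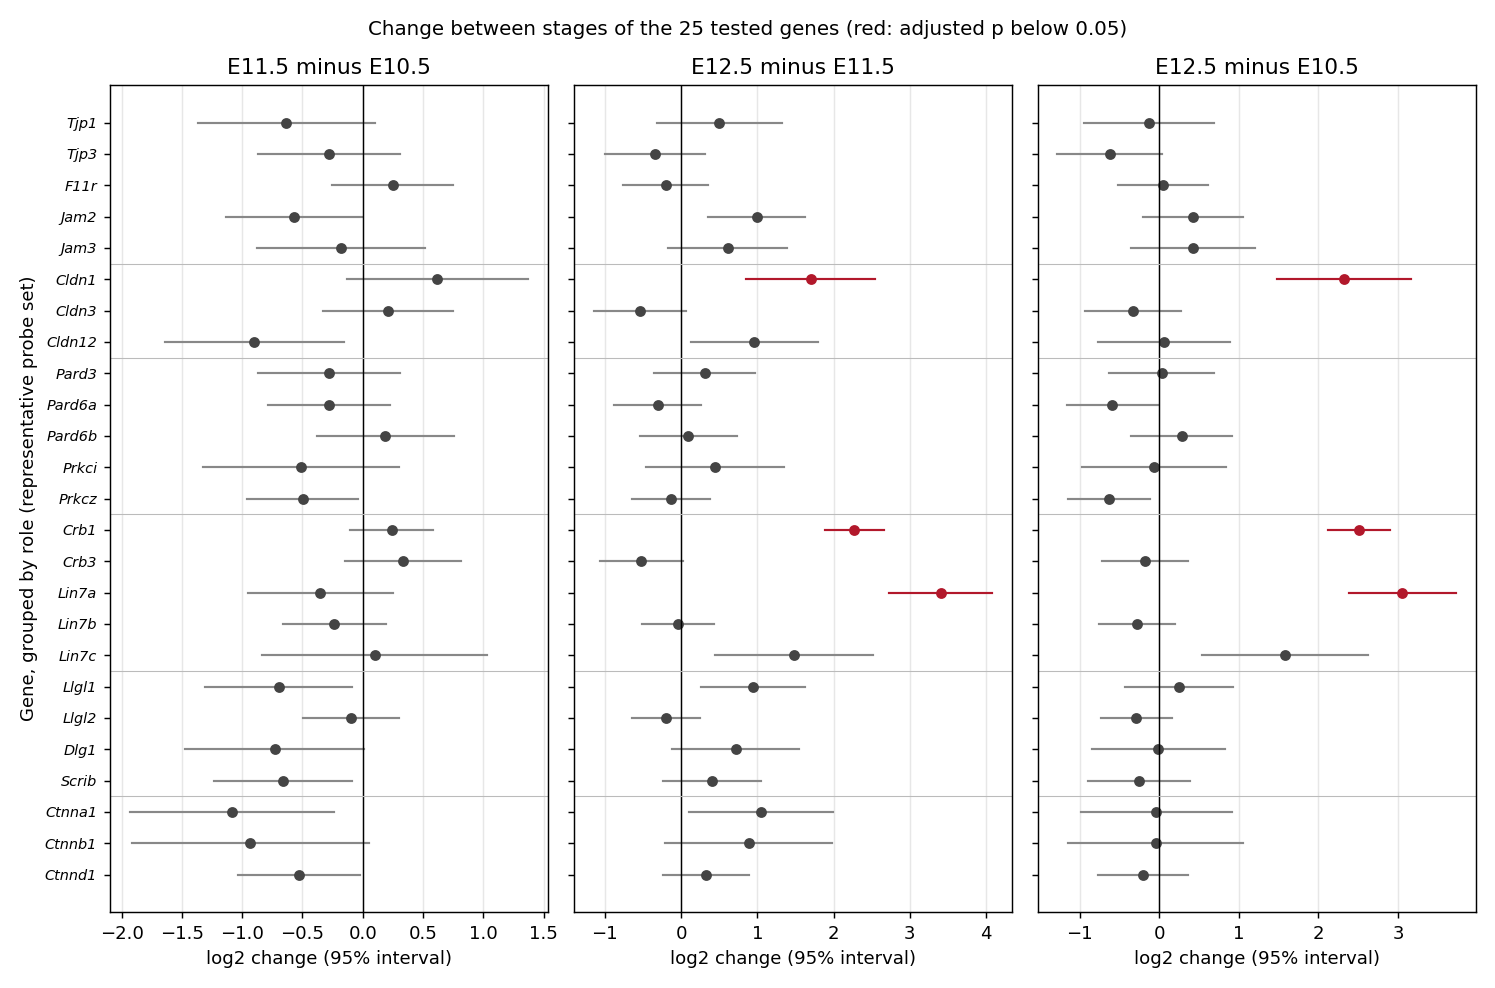
Difference of stage means in log2 signal for the representative probe set, the brightest on average, of each of the 25 tested genes, with 95% intervals from limma and genes grouped by role. Red marks the called genes Crb1, Lin7a and Cldn1 at E12.5, and no gene is called between E11.5 and E10.5.

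Bright members were lower at E11.5 together with bright probe sets in general. The 7 genes with a mean log2 signal of 9 or more (Tjp1, Cldn12, Prkci, Llgl1, Dlg1, Ctnna1 and Ctnnb1) all had a negative difference between E11.5 and E10.5 as deposited, from -1.09 to -0.51, and a positive one between E12.5 and E11.5, from 0.45 to 1.05. Over all 2501 genes this bright, the median differences were -0.71 and 0.56. Quantile normalization gives all arrays the same distribution, so it removes a shift common to bright genes by construction. The medians of the 2501 genes then became -0.01 and 0.01. After quantile normalization, 4 of the 7 were higher and 3 lower at E11.5 (-0.17 to 0.22), and 6 higher and 1 lower at E12.5 against E11.5 (-0.12 to 0.50). Ctnna1 then differed by -0.09 and 0.36 in these comparisons, and Scrib, which is dimmer, by -0.42 in the first. Over the 25 tested genes, 7 differences between E11.5 and E10.5 were positive and 18 negative as deposited, and 13 were positive and 12 negative after it. That scaling moved the median of all probe sets for E11.5 against E10.5 to -0.02, from -0.18 as deposited. At E12.5 against E11.5, the rise under it was 3.19 for Lin7a and 2.18 for Crb1, both called. Without E10.5 C and E11.5 A, a fit chosen after seeing the data, the E11.5 minus E10.5 difference was -0.61 for Ctnna1, -0.49 for Cldn12 and -0.34 for Scrib. The part of the lower bright end of the E11.5 arrays in these differences was not tested.

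**Figure D3:**
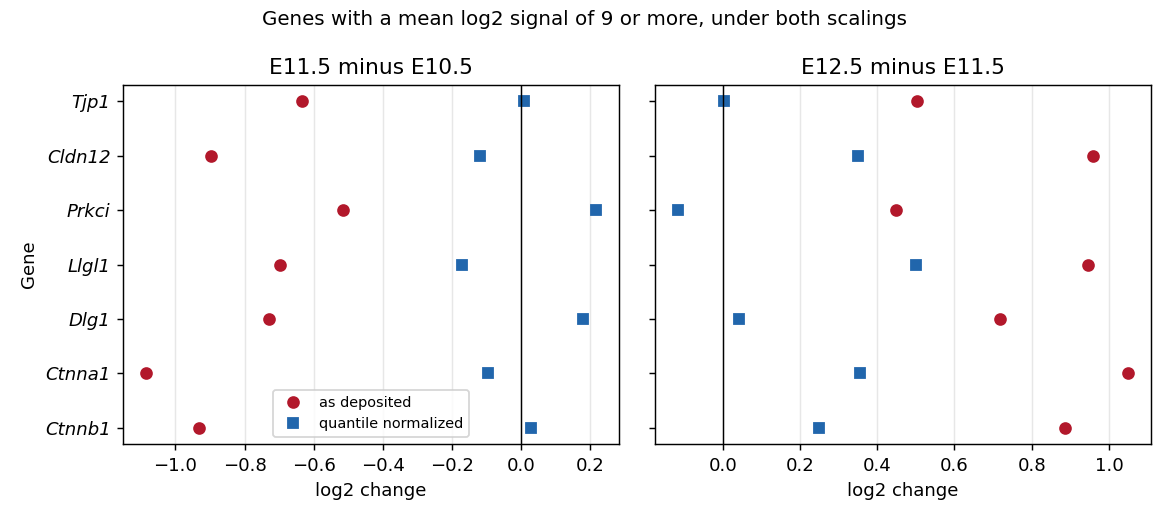
Log2 change of the 7 bright genes between stages, as deposited (circles) and after quantile normalization (squares). As deposited, all 7 lie below 0 at E11.5 against E10.5 and above 0 at E12.5 against E11.5, and after quantile normalization they lie between -0.17 and 0.22 in the first comparison and between -0.12 and 0.50 in the second.

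Between E11.5 and E10.5, limma called 0 of the 51 tested probe sets, against 0.126% of all probe sets, while 10 had an unadjusted p below 0.05. By representative probe set 0 of 25 genes were called, against 0.176% of 13050 genes. An unadjusted limma p below 0.05 was held by 7 of the 25, against 2896 of all 13050 genes. The arrays of the stages did not overlap for 1 gene that was all higher (4% of 25, against 3.86% of all genes) and 5 that were all lower (20%, against 22.2%). The median change of the 25 genes was -0.28, beside -0.22 for all genes. These shares lie near those of all genes. Probe sets of a gene often went apart in sign: of 16 genes with several tested probe sets, 9 had differences of both signs here, 6 between E12.5 and E11.5 and 7 between E12.5 and E10.5.

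Between E12.5 and E11.5, 4 of 51 probe sets were called, all higher (7.84%, against 1.82% of all probe sets), in 4 genes. By representative probe set these were 3 of 25 genes (against 2.02% of all genes). The arrays did not overlap for 10 genes that were all higher (40%, against 31%) and 3 that were all lower (12%, against 15.1%), and the median change was 0.45, beside 0.11 for all genes. The count of probe sets was 2 without E11.5 A, 2 without E11.5 B and 9 without E11.5 C. Among the 9, beside the 4 called above, were 2 of Lin7c and 1 each of Llgl1, Ctnna1 (1448149_at) and Ctnnb1 (1450008_a_at).

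Between E12.5 and E10.5, 5 of 51 probe sets were called, all higher (9.8%, against 4.64% of all probe sets), in the same 4 genes, and 3 of 25 genes by representative probe set (against 5.26% of all genes). The arrays did not overlap for 6 genes in each direction (24% each, against 19.9% of all genes for all higher and 27.7% for all lower), and the median change was -0.04, beside -0.10. Without E12.5 B the count was 3. The called Lin7a probe set 1456656_at passed the signal filter through its E12.5 values, since its mean over the 6 earlier arrays, 3.90, lay below the limit. For the called probe sets of Crb1 and Cldn1 that mean, 3.99 and 3.97, was just above it, so the counts over tested probe sets are a description. The same holds for the counts of genes, whose representative probe sets were also chosen with the E12.5 values. Comparisons that share a stage share its arrays and are not independent.

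**Figure D4:**
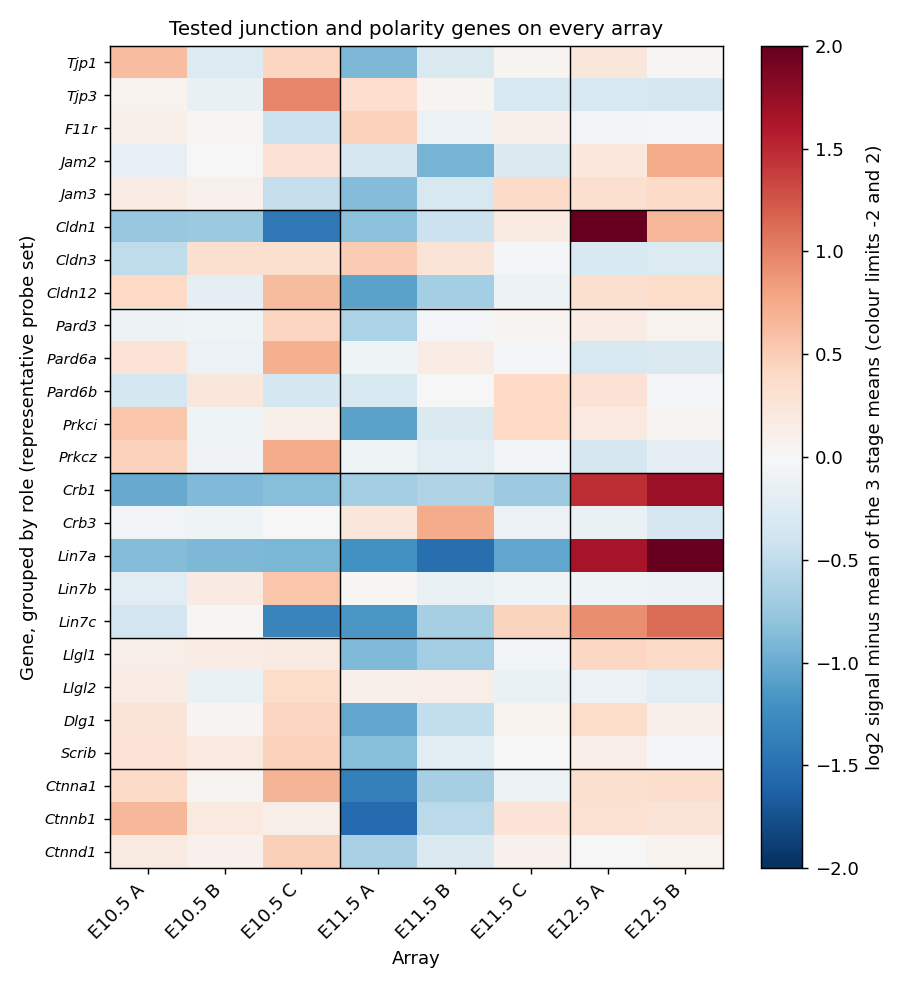
Log2 signal of the representative probe set of each tested gene on every array, less the mean of the 3 stage means, with lines between stages and between role groups. Lin7a, Crb1 and Cldn1 are high on both E12.5 arrays, and the 7 genes with a mean of 9 or more are all at their lowest on E11.5 A.

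Other genes of the same structures were counted from lists of non-members. Of all genes, 2.02% were called between E12.5 and E11.5 and 5.26% between E12.5 and E10.5. Of 10 tested tight junction genes, 1 fell at E12.5 against E11.5 and 9 were not called. It was Cgnl1, paracingulin, which read 5.73 and 5.17 at E12.5 against 6.98, 7.55 and 6.60 at E11.5 (-1.59, SE 0.34, adjusted p = 0.0414). Against E10.5 1 rose and 1 fell: Cgn, cingulin, a plaque protein of tight junctions, by 1.68 (SE 0.38, adjusted p = 0.0314), and Sympk, symplekin, also an RNA 3 prime processing factor, with -1.67 (SE 0.42, adjusted p = 0.0446). Of 34 polarity genes, 1 rose in both comparisons and 33 were not called. This was the giant cadherin Fat4, which read 9.12 and 9.27 at E12.5, against 7.24, 7.62 and 7.68 at E11.5 (1.68, SE 0.32, adjusted p = 0.023).

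Of 26 adherens junction and cortical actin genes, 2 rose at E12.5 against E11.5, 3 against E10.5, and none fell. Cdh4, R-cadherin, read 9.31 and 9.62 at E12.5, against 6.69, 7.31 and 7.07 at E11.5 (2.44, SE 0.30, adjusted p = 0.00158). Ctnnd2, the p120-related delta-catenin of neurons, rose by 1.49 (SE 0.30, adjusted p = 0.03), and Pkp2, a plakophilin of desmosomes, rose against E10.5 by 1.37 (SE 0.28, adjusted p = 0.0196). Over the 3 lists together, limma called 0 of 70 genes between E11.5 and E10.5, against 0.176% of all genes. An unadjusted p below 0.05 was held by 20 of them, against 2896 of all 13050 genes. Between E12.5 and E11.5, 3 of the 70 were called higher and 1 lower, and between E12.5 and E10.5, 5 higher and 1 lower. The median changes of the 70 genes were -0.28, 0.34 and 0.06 in these 3 comparisons, beside -0.22, 0.11 and -0.10 for all genes.

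Neuronal markers moved with the E12.5 rises. All 6 markers (Tubb3, Elavl3, Elavl4, Dcx, Stmn2 and Isl1) were higher on both E12.5 arrays than on any earlier one, with 4 called against E11.5 and 5 against E10.5. Their summed linear signal was 101 to 115 at E10.5, 82 to 91 at E11.5, and 240 and 2024 at E12.5, where array B held the higher sum. The called probe sets of Lin7a, Crb1 and Jam2 were also higher on E12.5 B than on E12.5 A, by 0.23 to 1.01 log2 units, whereas Cldn1 was higher on E12.5 A. The part of neurons in these rises was not tested.

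Markers of 9 other tissues were summed in the same way, over the genes above the filter. The neural retina list (5 of 6 genes) summed to 7981 to 9960 at E10.5, 3711 to 7626 at E11.5 and 11260 to 12373 at E12.5, and the ventral cup list (3 of 4) to 3084 to 5781, 2346 to 5865 and 3365 to 6134. The ventral cup sum was carried mostly by Aldh1a3 (stage means 11.69, 11.58 and 11.72), and its other genes went apart. Vax1 (8.88, 7.77 and 7.88) was lower on every later array than on any E10.5 array. Its E12.5 minus E10.5 difference was -0.999 (limma adjusted p = 0.0501). Vax2 (8.86, 8.95 and 9.84) was highest at E12.5, and none of these genes was called. The pigment epithelium list (5 of 5) gave 1571 to 4125, 2909 to 7559 and 3304 to 5410, with Tyr called at E11.5 and Tyr and Tyrp1 at E12.5 against E10.5. At E12.5 against E10.5, 4 of its genes were higher and 1, Mitf, was lower (stage means 10.40, 10.37 and 9.22, not called). Surface ectoderm markers (5 of 9, with Cdh1, Krt14, Krt19 and Trp63 below the filter) gave 261 to 343, 659 to 912 and 422 to 472, a sum carried mostly by Krt18 and Epcam. Lens markers (3 of 6, with Cryba1, Crygs and Foxe3 below the filter) gave 52 to 100, 378 to 493 and 301 to 401. Cryab was called at both later stages against E10.5. Cryaa, with stage means of 4.12, 4.13 and 3.85, and Prox1, with 4.57, 6.95 and 5.38, were not called. Periocular mesenchyme (4 of 7) gave 156 to 310, 369 to 639 and 313 to 503, and endothelium (3 of 7, with Pecam1, Cdh5, Tie1 and Emcn below the filter) 114 to 182, 109 to 143 and 203 to 218. Red cell markers (5 of 6) gave 16796 to 22613, 9637 to 22642 and 16492 to 17745, with Hbb-bh1 lower at E12.5 in both comparisons, and macrophage markers (5 of 7) 411 to 1287, 631 to 726 and 940 to 1349. The part of these cell types in the changes was not tested.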

How the data were processed

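The submitters deposited 1 table of log2 signals, covering 45101 probe sets on 8 arrays. The submitters' processing notes list GCOS 1.4 without saying what it did, and summarization, background correction and normalization are not given in the sources used here. RNA was amplified by rounds of in vitro transcription, per the labels' protocols, which favours 3 prime ends. Depth has no meaning for these arrays, and the number of arrays limits precision.

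The 64 control probe sets and the lowest 40% of the others were left out. Symbols came from the platform annotation of 2016. Of the 45101 probe sets, 34958 had 1 symbol, 932 several and 9211 none. Of those with 1 symbol, 34754 matched RefSeq genes (GRCm38.p6). The values were fitted as deposited with limma 3.58.1 (R 4.3.3), 1 model of stage over all 8 arrays (5 residual degrees of freedom), with a trend on mean signal and two-sided tests. Benjamini-Hochberg adjustment ran over the 27022 kept probe sets. A gene was represented by its brightest kept probe set. The fit was checked on data made with known changes. Values on every array were given for members with a called probe set and, where a role group had none, for its gene with the smallest p in each comparison. In each other list up to 6 called genes were named. The members and lists were chosen with earlier results of these data known. Alternatives were quantile normalization, median centring, pseudocounts of 1 and 64, no filter and a 60% filter, no trend, array weights, the letters as a block, only the stages compared, averaged probe sets and each array left out. The fit without E10.5 C and E11.5 A together was added after seeing the data. Promoters came from RefSeq.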

Additional observations from a re-analysis of the deposited data

How the results depend on the processing

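Of 21 log2 changes followed through the alternatives, 0 changed direction in 411 refits, 25 refits lost a call and 8 gained one. Most gains came with array weights, and the others were Llgl1 without E11.5 C and Prkcz without E10.5 B. Between E11.5 and E10.5 the count of called probe sets was 0 as reported and in every alternative except array weights, with 8. Between E12.5 and E11.5 the 4 calls became 2 with the lowest 60% left out, 28 with array weights, and 2 to 9 with 1 array left out. Between E12.5 and E10.5 the 5 calls became 2 with the lowest 60% left out, 3 with only these stages fitted, 3 genes with probe sets averaged, and 3 to 6 with 1 array left out. With the letters as a replicate block the counts were 0, 3 and 3, and the calls that ended were Cldn1 against E11.5 (1.72, adjusted p = 0.128) and, against E10.5, Jam2 (1.30, adjusted p = 0.0629) and the dimmer Lin7a probe set (1.57, adjusted p = 0.0545). Over all probe sets, the 34, 492 and 1255 calls of the 3 comparisons became 5, 280 and 531 with that block, 15, 546 and 509 with only the stages compared, and 5017, 12520 and 3371 with array weights. They became 5 to 56, 114 to 905 and 209 to 1610 with 1 array left out, and in the first comparison 0 with a pseudocount of 64 and 6 without the trend. The labels do not state that the letters pair arrays. Deviations of same-letter arrays from their stage means correlated at -0.394 to 0.127, and 1 of 7 pairs was above 0.1. Of 8 arrays, 0 correlated best with their own letter. With 2 or 3 arrays in a stage these deviations are tied to each other, so the correlations cannot decide whether the letters mark a pairing. The array weights did not converge and gave E11.5 B 98.1% of the total, so they rest on 1 array. The stricter filter removed the tested probe sets of Crb1 and Cldn1 and the dimmer one of Lin7a. The cause of the other differences was not tested. Leaving out an E12.5 array left 1, assumed to vary like the other stages.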
